A study of Homo sapiens with 3 samples.

Results

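The genes described here are 36 members of the solute carrier families SLC1, SLC3, SLC7, SLC36, SLC38 and SLC43, most of which move amino acids across membranes. They were chosen by name alone, as every row of the deposited table whose symbol is that of a numbered member of these families, and they are 36 of 35851 rows. SLC7 and SLC38 gave 10 rows each, SLC1 gave 7, SLC36 gave 4, SLC43 gave 3 and SLC3 gave 2. The study transfected 5637 cells, a human bladder cancer line labelled wild type, with siRNA against the transcription factor gene MYBL2 or with a control siRNA, to find genes downstream of MYBL2, and sequenced poly(A) RNA. The groups were siMYBL2 (2 libraries, siMYBL2-1 and siMYBL2-2) and siNC, the control siRNA (1 library). All cells were of this 1 line, grown in RPMI medium with fetal bovine serum and transfected with a Lipofectamine reagent. Whether siMYBL2-1 and siMYBL2-2 are distinct siRNAs or repeats of 1 siRNA is not given in the labels, nor is whether the libraries are separate cultures, so the p-values below measure the spread between these libraries, which may be technical.

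Amino acids enter and leave cells through carriers that differ in substrate and in the ion or counter-substrate they use. SLC1 carriers take up glutamate or exchange small neutral amino acids such as glutamine. The SLC3 proteins SLC3A2 (the CD98 heavy chain) and SLC3A1 are not carriers but bring SLC7 light chains to the cell surface, where SLC7A5 exchanges large neutral amino acids, SLC7A11 exchanges cystine for glutamate and others carry cationic amino acids. SLC38 carriers take up glutamine and other small neutral amino acids with sodium, and some SLC36 carriers move small amino acids with protons. SLC38A9 and SLC36A1 act on lysosomes, where amino acids are sensed by the kinase complex mTORC1. In many carcinomas SLC7A5, SLC3A2 and SLC1A5 are abundant and supply growing cells with leucine and glutamine.

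Assigned reads numbered 41818861 in siMYBL2-1, 46177658 in siMYBL2-2 and 40259436 in siNC, and the members together took 0.147% of them in siMYBL2-1 and 0.133% in siMYBL2-2, against 0.134% in siNC. MYBL2, the targeted gene, was at 46.0 RPKM in siMYBL2-1 and 56.3 RPKM in siMYBL2-2, against 211 RPKM in siNC (RPKM, the reads of a gene divided by its exonic length and by the library total). It was therefore lower in both siMYBL2 libraries, though its limma adjusted p was 0.153 over all genes tested. Of 12 urothelial markers, 10 were at 1 RPKM or more in each library, while UPK2 was under 1 RPKM and UPK1B was at 0 in all of them. The 8 markers of leukocytes, endothelium and fibroblasts summed to 7.48 RPKM in siMYBL2-1 and 5.39 RPKM in siMYBL2-2, against 4.98 RPKM in siNC.

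The results turn on 3 kinds of member: carriers that differed most between siMYBL2 and siNC (SLC43A3, SLC7A8 and SLC1A1), carriers that differed between the siMYBL2 libraries themselves (SLC43A3, SLC7A8 and SLC7A11), and abundant carriers that hardly differed (SLC7A5 and SLC1A5). The 250 bases before the transcription start are printed below for SLC7A8 and SLC1A1, the members furthest below siNC in mean ratio among the 23 with at least 50 reads in each library, and for SLC7A5, the member with the highest mean level. They are from RefSeq on GRCh38.p14, in which 30 of the 36 members were matched to a promoter here, SLC43A3 and SLC7A11 not among them, and they were chosen with these values known. Where RefSeq gave several starts, the nearest to the start of the row was used. It lay 14, 24 and 19 bases from it for SLC7A8, SLC1A1 and SLC7A5, but far from it for some other members, as for SLC38A9 (60859 bases) and SLC7A7 (10029 bases). They are read 5′ to 3′ on the strand of the gene, and capitals mark a match to one of 5 motifs searched on both strands, which occurred here only in SLC7A5 (an E-box, 130 bases before the start).
SLC7A8, chr14:23183661-23183910, minus strand: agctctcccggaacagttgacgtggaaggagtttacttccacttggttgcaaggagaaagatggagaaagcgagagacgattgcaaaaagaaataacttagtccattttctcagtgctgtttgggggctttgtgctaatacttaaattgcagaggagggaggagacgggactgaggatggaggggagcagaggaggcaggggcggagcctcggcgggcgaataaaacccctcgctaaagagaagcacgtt
SLC1A1, chr9:4490218-4490467, plus strand: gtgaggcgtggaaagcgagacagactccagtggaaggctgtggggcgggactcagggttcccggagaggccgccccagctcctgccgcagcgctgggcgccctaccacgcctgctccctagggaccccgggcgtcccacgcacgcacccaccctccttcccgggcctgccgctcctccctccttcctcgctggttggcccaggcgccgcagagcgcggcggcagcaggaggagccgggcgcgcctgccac
SLC7A5, chr16:87869508-87869757, minus strand: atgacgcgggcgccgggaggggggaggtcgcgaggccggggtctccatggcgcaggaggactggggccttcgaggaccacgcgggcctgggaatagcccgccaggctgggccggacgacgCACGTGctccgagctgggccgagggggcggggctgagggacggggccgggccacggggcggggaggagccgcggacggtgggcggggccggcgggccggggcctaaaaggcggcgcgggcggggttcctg
The motifs were TGATGNAA, the core of the C/EBP-ATF element of the amino acid response, CACGTG, the E-box bound by MYC among others, TGACNNNGC, the core of the antioxidant response element, TAACNG, a core bound by MYB proteins, and TTTGAA, the cell cycle homology region. TGATGNAA was in 0 of the 30 member promoters and in 3.15% of 35091 promoters of the same length in RefSeq. TAACNG was in 0 of the 30 and in 17.6% of all. CACGTG was in 4 of 30 (13.3%) and in 6.34% of all, TGACNNNGC in 4 of 30 (13.3%) and in 10.9%, and TTTGAA in 3 of 30 (10.0%) and in 13.3%. The 35091 promoters can include several of the same gene, whereas each member entered once, so the shares are not like for like. These are matches of letters within 250 bases and say nothing on binding.

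The level of the members covered a wide range. The filter for the test, an average over the 3 libraries of 1 RPKM or more, was passed by 13 members, of which 8 were above 10 RPKM. Another 12 members had a mean of 0.1 to under 1 RPKM, and 11 were under 0.1 RPKM with at most 19 reads in a library. SLC36A3, an orphan member of the proton-coupled family, had 0 reads in all 3 libraries, a count that allows up to 3 reads in each. The other members under 0.1 RPKM were SLC7A7, SLC7A10, SLC7A4, SLC7A9, SLC38A8, SLC1A2, SLC36A2, SLC1A6, SLC38A11 and SLC1A7. Among them are the carriers of neurons and glia SLC1A2, SLC1A6 and SLC7A10, and the kidney carriers SLC7A9 and SLC36A2. Their reads are too few to set the libraries against each other.

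**Figure D1:**
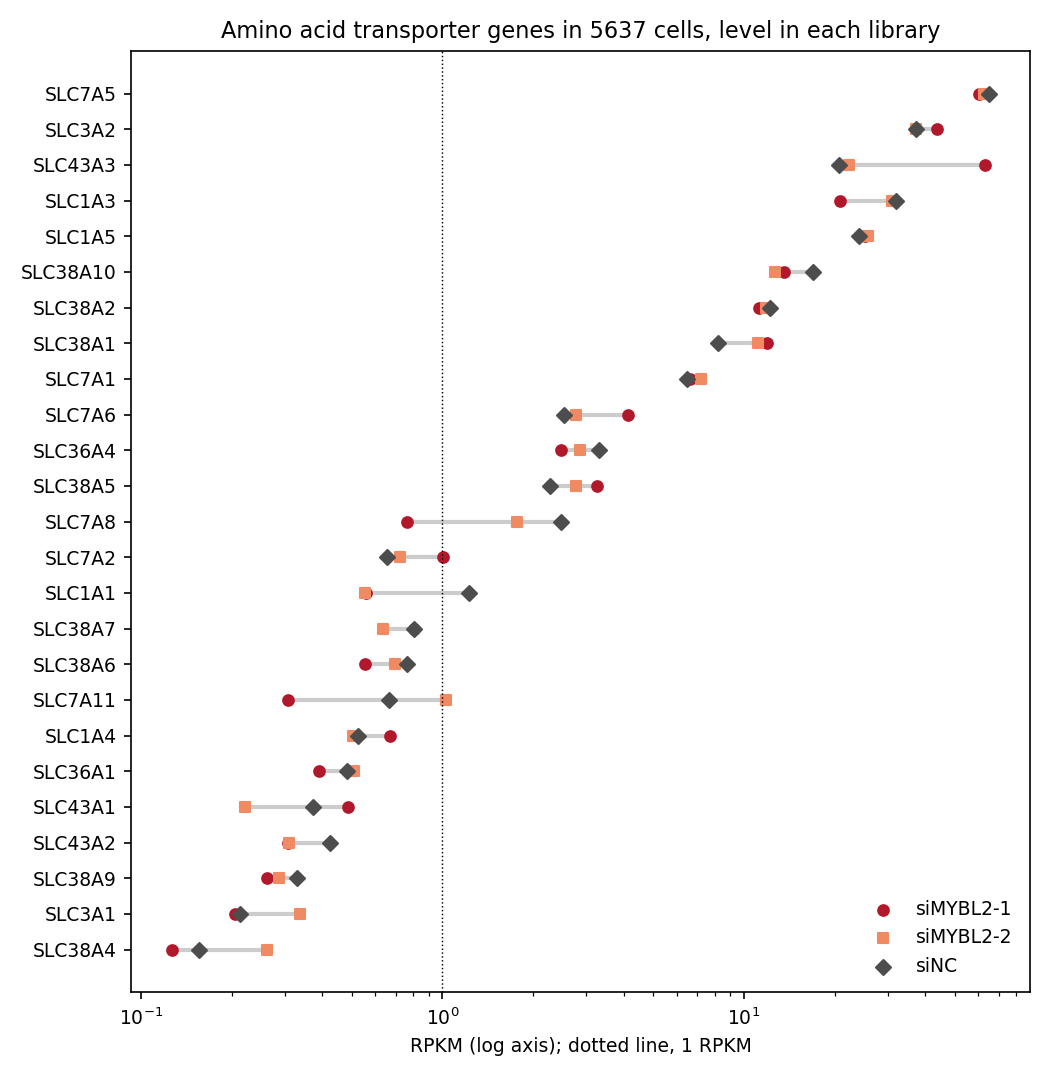
Level of the 25 members with a mean of at least 0.1 RPKM in each library (horizontal log axis, RPKM), 1 row per gene in the order of the mean, with siMYBL2-1 as circles, siMYBL2-2 as squares and siNC as diamonds. The symbols of SLC7A5 and SLC1A5 nearly coincide, while SLC43A3, SLC7A8, SLC1A1 and SLC7A11 are spread out, SLC43A3 through its siMYBL2-1 symbol at 63.1 RPKM.

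By limma on log2(RPKM + 1), 0 of the 13 members tested passed an adjusted p of 0.05 for siMYBL2 against siNC, where 0.00753% of the 13274 genes tested did. Every member tested had an adjusted p of 0.999. An unadjusted limma p under 0.05 was found for 0 of the 13 (lowest 0.0759, SLC7A8) and for 625 of the 13274 genes tested. By limma-voom on the recovered reads 0 members passed as well. There 1 member, SLC7A8, had an unadjusted p under 0.05, as did 639 of all genes tested. Neither count can be read as a result about the families. The standard errors of the log2 differences lay between 0.28 and 0.49, and the test has 1 residual degree of freedom before moderation. Differences are therefore given below as levels, with counting intervals of the ratio between 2 libraries that do not cover differences between cultures. Both ratios to siNC share the 1 siNC library, so a chance deviation of siNC moves both.

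By size, 7 of the 13 members (53.8%) were higher in both siMYBL2 libraries than in siNC, as were 29.7% of all genes tested. Another 6 members (46.2%) were lower in both (36.4% of all), so that the groups overlapped for 0 of the 13. From 13 members and 1 siNC library, these counts were not read as a result about the families. For some members the separation was minute, as for SLC3A2 in siMYBL2-2 and siNC. With a mean difference of at least 1.5-fold on the log2(RPKM + 1) scale, 1 member was higher (SLC43A3, against 3.49% of genes tested) and 1 was lower (SLC7A8, against 4.44%). As 1 gene is 7.69% of the 13 members, neither count can be read as a result about the families. The median log2 difference of the 13 members was 0.08, against -0.03 for all genes tested.

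SLC43A3 showed the largest log2 difference of the 13 members tested, and it lay in siMYBL2-1. The gene is on chromosome 11 (57406954 to 57427580, minus strand, hg38), and unlike its family members SLC43A1 and SLC43A2, which carry large neutral amino acids, its protein is known as a carrier of purine nucleobases. In siMYBL2-1 its level was 63.1 RPKM (11928 reads) and in siMYBL2-2 22.3 RPKM (4661 reads), against 20.8 RPKM (3775 reads) in siNC. siMYBL2-1 thus stood alone, 3.04 times siNC (95% counting interval 2.93 to 3.16), while siMYBL2-2 was 1.08 times siNC (1.03 to 1.12). The siMYBL2 mean was 42.7 ± 28.9 RPKM (SD, n = 2), and the log2 difference was 0.83 (SE 0.49, limma adjusted p 0.999). Without siMYBL2-1 the log2 difference was 0.10, so that the size of the difference rests on that library. In bulk libraries more cells that express a gene and more RNA per cell cannot be told apart. The table gives 70.1% of the exonic bases of SLC43A3 to that row alone. The row RP11-872D17.8 on the same strand, of whose exonic bases 4.55% are its own, was at 95.7 RPKM in siMYBL2-1 and 33.4 RPKM in siMYBL2-2, against 30.1 RPKM in siNC, and the same reads may stand in both rows. Of the 10 urothelial markers at 1 RPKM or more in each library, 6 were also highest in siMYBL2-1 (KRT7, KRT8, KRT18, EPCAM, CDH1 and GATA3), while the basal markers KRT5 and TP63 were lowest there and KRT17 and KRT19 were lower in both siMYBL2 libraries than in siNC. EPCAM was at 177 RPKM in siMYBL2-1 and 71.8 RPKM in siMYBL2-2, against 102 RPKM in siNC, and KRT5 was at 176 and 230 RPKM, against 315 RPKM in siNC. All 12 summed to 3031 RPKM in siMYBL2-1 and 2403 RPKM in siMYBL2-2, against 2901 RPKM in siNC. Their part in the level of SLC43A3 was not tested.

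The other SLC43 genes were scarce. SLC43A1, a carrier of large neutral amino acids, was at 0.487 RPKM in siMYBL2-1 and 0.221 RPKM in siMYBL2-2, against 0.373 RPKM in siNC, on 36 to 72 reads, and siNC lay between the siMYBL2 libraries. SLC43A2, with the same substrates, was at 0.307 and 0.310 RPKM in siMYBL2-1 and siMYBL2-2, against 0.424 RPKM in siNC. Both siMYBL2 ratios of SLC43A2 were alike, 0.723 (0.575 to 0.909) and 0.732 (0.586 to 0.913) times siNC.

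Among the heavy chains and light chains, the abundant pair SLC7A5 and SLC3A2 hardly differed. SLC7A5 (chromosome 16, 87830023 to 87869488, minus strand) was at 60.5 RPKM in siMYBL2-1 and 62.5 RPKM in siMYBL2-2, against 65.0 RPKM in siNC, a siMYBL2 mean of 61.5 ± 1.42 RPKM (SD, n = 2) and a log2 difference of -0.08 (SE 0.29, limma adjusted p 0.999). It was the most abundant member in siMYBL2-2 and siNC, and second to SLC43A3 in siMYBL2-1. SLC3A2 (chromosome 11, 62856102 to 62888875, plus strand) was at 43.9 RPKM in siMYBL2-1 and 37.3 RPKM in siMYBL2-2, against 37.3 RPKM in siNC. For SLC3A2 siMYBL2-1 was 1.18 times siNC (1.14 to 1.21) and siMYBL2-2 was 1.00 times siNC (0.970 to 1.03). On the RPKM scale, the ratio of SLC7A5 to SLC3A2 within a library was 1.38 in siMYBL2-1 and 1.67 in siMYBL2-2, against 1.74 in siNC. The 6 light chains that pair with SLC3A2 summed to 65.8 RPKM in siMYBL2-1 and 68.1 RPKM in siMYBL2-2, against 70.8 RPKM in siNC, and SLC7A5 was between 91.7% and 91.9% of that sum in each library. At the transcript level SLC7A5 was thus most of the light chain in all 3 libraries.

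The less abundant partners of SLC3A2 went in different directions. SLC7A8 (chromosome 14, 23125295 to 23183674, minus strand), a light chain for neutral amino acids of wider size range than those of SLC7A5, had a level of 0.766 RPKM in siMYBL2-1 (192 reads) and of 1.77 RPKM in siMYBL2-2 (490 reads), against 2.47 RPKM (596 reads) in siNC. Both siMYBL2 libraries lay below siNC, at 0.310 times (0.262 to 0.366) and 0.717 times (0.635 to 0.809), and they also lay apart from each other. The log2 difference was -0.65 (SE 0.33, limma adjusted p 0.999), and without siMYBL2-1 it was -0.32. SLC7A6, which exchanges cationic for neutral amino acids, was at 4.13 RPKM in siMYBL2-1 and 2.77 RPKM in siMYBL2-2, against 2.54 RPKM in siNC. Only 44.4% of the exonic bases of SLC7A6 are its own, and SLC7A6OS on the opposite strand was in the same order, at 6.85 and 5.09 RPKM in siMYBL2-1 and siMYBL2-2, against 4.63 RPKM in siNC. With the strand setting unknown, reads on the bases they share may come from either gene.

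SLC7A11, the cystine and glutamate exchanger that supplies cysteine for glutathione, was the member for which the siMYBL2 libraries lay on opposite sides of siNC by the widest margin among the 23 members with at least 50 reads in each library. In siMYBL2-1 it was at 0.307 RPKM (124 reads) and in siMYBL2-2 at 1.03 RPKM (457 reads), against 0.667 RPKM (259 reads) in siNC. The siMYBL2-1 level was 0.461 times siNC (0.369 to 0.573) and the siMYBL2-2 level was 1.54 times siNC (1.32 to 1.80), and siMYBL2-1 was 0.300 times siMYBL2-2 (0.244 to 0.366). Its mean of 0.667 ± 0.508 RPKM (SD, n = 2) in siMYBL2 is therefore close to the siNC level although neither library is. SLC7A11 was under the filter and not in the main test, and the limma fit without a filter, which included it, called 0 members. Its antisense row SLC7A11-AS1, which shares part of its exons, had 23 reads in siMYBL2-1 and 88 reads in siMYBL2-2, against 67 reads in siNC.

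The cationic carriers differed little or were scarce. SLC7A1, the main uptake route for arginine and lysine in many cells, was at 6.62 RPKM in siMYBL2-1 and 7.19 RPKM in siMYBL2-2, against 6.46 RPKM in siNC. SLC7A2, its inducible relative, was at 1.00 RPKM in siMYBL2-1 and 0.723 RPKM in siMYBL2-2, against 0.654 RPKM in siNC, and the siMYBL2-1 ratio was 1.53 (1.28 to 1.83) while the interval of the siMYBL2-2 ratio, 0.919 to 1.33, held 1. SLC3A1, the heavy chain of the kidney and gut cystine carrier, was at 0.205 RPKM in siMYBL2-1 (56 reads) and 0.338 RPKM in siMYBL2-2 (102 reads), against 0.213 RPKM (56 reads) in siNC. Of its exonic bases 70.6% are its own, the rest being shared with PREPL on the opposite strand, and its partner SLC7A9 had at most 2 reads in a library.

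**Figure D2:**
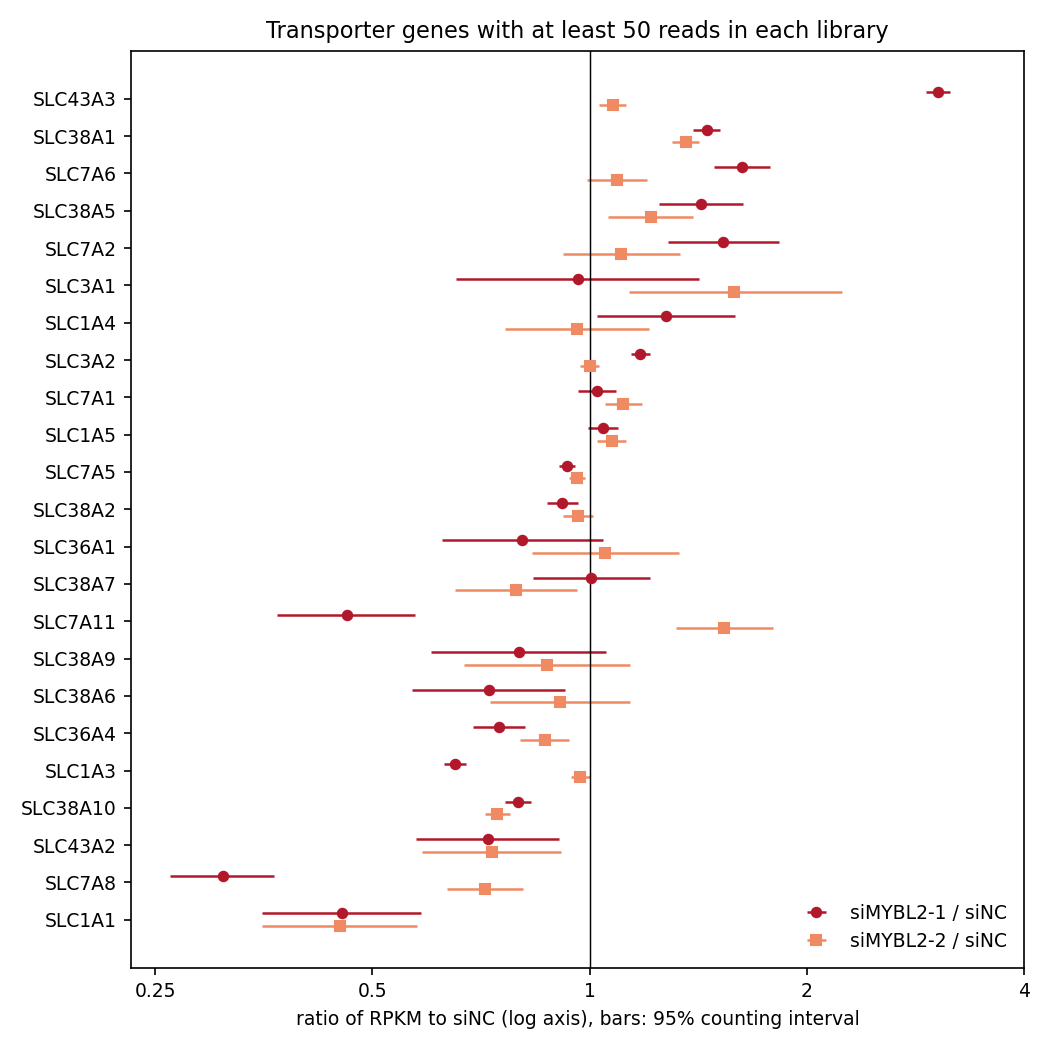
Ratio of RPKM in each siMYBL2 library to the same siNC library for the 23 members with at least 50 reads in every library (horizontal log axis; circles, siMYBL2-1; squares, siMYBL2-2; bars, 95% counting intervals), in the order of the mean ratio. SLC43A3 lies at the top through siMYBL2-1 alone, SLC1A1 at the bottom with both ratios alike (0.454 and 0.451), and SLC7A11 has its symbols on opposite sides of 1.

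Of the SLC1 glutamate carriers, 1 was abundant and 1 was scarce but lower in both siMYBL2 libraries. SLC1A3, the glutamate carrier best known from astrocytes, was at 20.8 RPKM in siMYBL2-1 (5450 reads) and 31.0 RPKM in siMYBL2-2 (8979 reads), against 32.0 RPKM (8067 reads) in siNC. Its lower level was that of siMYBL2-1, 0.650 times siNC (0.628 to 0.673), whereas siMYBL2-2 was 0.970 times siNC (0.942 to 1.00). The log2 difference was -0.32 (SE 0.32, limma adjusted p 0.999). SLC1A1 (chromosome 9, 4490444 to 4587469, plus strand), an epithelial carrier of glutamate and cysteine, was at 0.556 RPKM in siMYBL2-1 (93 reads) and 0.552 RPKM in siMYBL2-2 (102 reads), against 1.22 RPKM (197 reads) in siNC. The siMYBL2 libraries were alike for SLC1A1, 2.20-fold lower (1.71 to 2.85) and 2.22-fold lower (1.74 to 2.84) than siNC, and 100% of its exonic bases are its own. With a mean under 1 RPKM it was not in the main test. The limma fit without a filter, which included SLC1A1, called 0 members, and 0 genes of all. Plain ratios were also taken for the 23 members with at least 50 reads in each library, a rule added after the values were seen. With both siMYBL2 libraries above siNC, 1 member was at least 1.5-fold higher on average (SLC43A3, 4.35% of the 23, against 4.58% of 14118 rows). In the other direction 2 members were lower (SLC7A8 and SLC1A1, 8.7%, against 8.59%). Both shares are near those of all rows, so neither count can be read as a result about the families.

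The neutral exchangers of the family showed no such difference. SLC1A5, which exchanges glutamine for other neutral amino acids, was at 25.2 RPKM in siMYBL2-1 and 25.9 RPKM in siMYBL2-2, against 24.1 RPKM in siNC, a siMYBL2 mean of 25.5 ± 0.488 RPKM (SD, n = 2) and a log2 difference of 0.08 (SE 0.29, limma adjusted p 0.999). Of its exonic bases 76.2% are its own, the rest being shared with rows on the opposite strand. It was at rank 4 among the members in all 3 libraries. SLC1A4, which exchanges alanine, serine and cysteine, was at 0.672 RPKM in siMYBL2-1 and 0.506 RPKM in siMYBL2-2, against 0.526 RPKM in siNC.

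Of the 2 glutamine carriers of system A in the SLC38 family, SLC38A1 was somewhat higher in both siMYBL2 libraries and SLC38A2 hardly differed. SLC38A1 (chromosome 12, 46183063 to 46270017, minus strand) was at 11.9 RPKM in siMYBL2-1 and 11.2 RPKM in siMYBL2-2, against 8.21 RPKM in siNC. The siMYBL2 libraries were close to each other, at 1.45 times (1.39 to 1.52) and 1.36 times siNC (1.30 to 1.42), with a mean of 11.5 ± 0.542 RPKM (SD, n = 2) and a log2 difference of 0.45 (SE 0.29, limma adjusted p 0.999). Its neighbour on the same strand, SLC38A2 (46358189 to 46372867), which other cells are known to induce when amino acids are scarce, was at 11.2 and 11.8 RPKM in siMYBL2-1 and siMYBL2-2, against 12.3 RPKM in siNC. The siMYBL2-1 ratio of SLC38A2 was 0.917 (0.873 to 0.964), and the interval of the siMYBL2-2 ratio, 0.920 to 1.01, held 1. The ratio of SLC38A1 to SLC38A2 on the RPKM scale was 1.06 in siMYBL2-1 and 0.944 in siMYBL2-2, against 0.670 in siNC. SLC38A4, the third gene of this cluster and a carrier of liver, was at 0.127 and 0.261 RPKM in siMYBL2-1 and siMYBL2-2, against 0.156 RPKM in siNC.

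SLC38A10 was the most abundant SLC38 gene and was lower in both siMYBL2 libraries by like amounts. It was at 13.5 RPKM in siMYBL2-1 and 12.7 RPKM in siMYBL2-2, against 17.0 RPKM in siNC, or 0.796 (0.764 to 0.829) and 0.745 (0.716 to 0.775) times siNC, with a log2 difference of -0.35 (SE 0.29, limma adjusted p 0.999). RP11-455O6.8, a row on the opposite strand all of whose exonic bases are shared, was in the same order, at 10.4 and 10.6 RPKM in siMYBL2-1 and siMYBL2-2, against 15.0 RPKM in siNC. SLC38A5, a sodium-coupled glutamine and glycine carrier, was at 3.25 RPKM in siMYBL2-1 and 2.77 RPKM in siMYBL2-2, against 2.28 RPKM in siNC, 1.43 times (1.25 to 1.63) and 1.22 times siNC (1.06 to 1.39). The scarce members SLC38A7, a lysosomal glutamine carrier, and SLC38A6 were between 0.553 and 0.807 RPKM in every library.

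SLC38A9 and SLC36A1, which act on lysosomes, were scarce and had counting intervals that held 1. SLC38A9, which senses arginine for mTORC1, was at 0.263 RPKM in siMYBL2-1 and 0.287 RPKM in siMYBL2-2, against 0.329 RPKM in siNC, with intervals of the ratio of 0.603 to 1.05 and 0.669 to 1.14. SLC36A1 was at 0.391 and 0.509 RPKM in siMYBL2-1 and siMYBL2-2, against 0.484 RPKM in siNC, with intervals of 0.624 to 1.04 and 0.832 to 1.33. SLC36A4, a carrier of proline and tryptophan and the leading SLC36 gene, was at 2.47 RPKM in siMYBL2-1 and 2.86 RPKM in siMYBL2-2, against 3.30 RPKM in siNC, 0.749 (0.689 to 0.814) and 0.866 (0.801 to 0.937) times siNC. At these depths differences of SLC38A9 and SLC36A1 smaller than their intervals were not detectable.

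Summed over each family, SLC43 differed most between libraries, through SLC43A3. The SLC43 genes summed to 63.9 RPKM in siMYBL2-1 and 22.9 RPKM in siMYBL2-2, against 21.6 RPKM in siNC. The SLC1 genes summed to 47.2 RPKM in siMYBL2-1 and 58.0 RPKM in siMYBL2-2, against 57.8 RPKM in siNC, the difference being mostly that of SLC1A3. The SLC7 genes summed to 73.4 and 76.1 RPKM in siMYBL2-1 and siMYBL2-2, against 78.0 RPKM in siNC, and the SLC38 genes to 41.7 and 40.3 RPKM, against 41.8 RPKM in siNC. In SLC38 the sum hid a shift in makeup, as SLC38A10 was 32.5% of it in siMYBL2-1 and 31.4% in siMYBL2-2, against 40.7% in siNC.

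**Figure D3:**
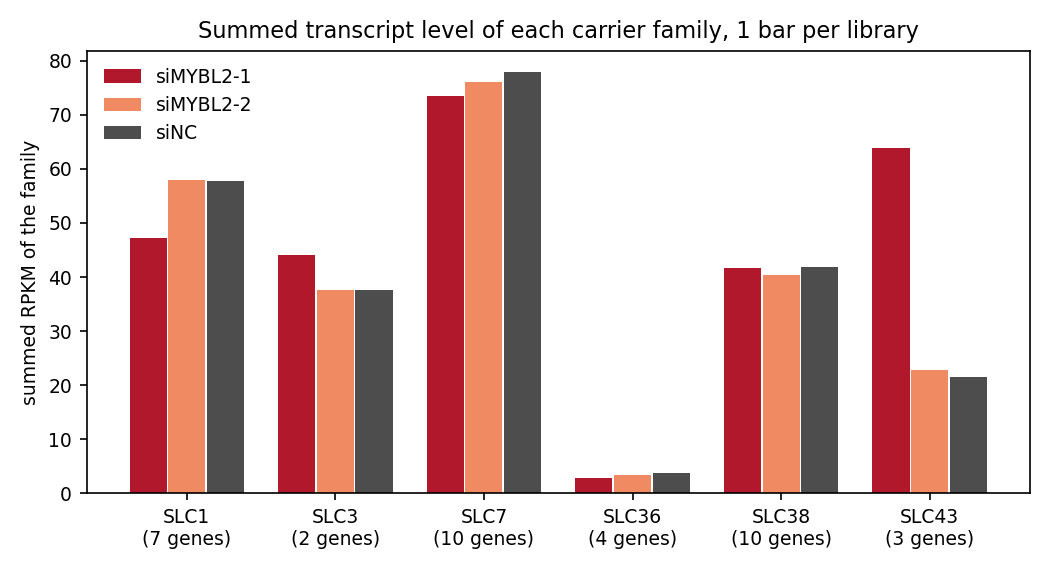
Summed RPKM of each of the 6 families (vertical axis from 0; 1 bar per library, siMYBL2-1, siMYBL2-2 and siNC from left to right). SLC43 stands at 63.9 RPKM in siMYBL2-1 only, while the bars of SLC7 lie between 73.4 and 78.0 RPKM and those of SLC38 between 40.3 and 41.8 RPKM.

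The siMYBL2 libraries also differed from each other for some members. On the log2(RPKM + 1) scale, 1 of the 13 members tested was at least 1.5-fold higher in siMYBL2-1 than in siMYBL2-2 (SLC43A3, against 6.57% of genes tested) and 1 was at least 1.5-fold lower (SLC7A8, against 6.23%). Against siNC, siMYBL2-1 was at least 1.5-fold higher for 1 member (7.39% of genes tested) and lower for 2, SLC1A3 and SLC7A8 (8.75%), and siMYBL2-2 for 0 higher (2.55%) and 0 lower (4.41%). The median size of the log2 difference between the siMYBL2 libraries was 0.15 for the 13 members and 0.23 for all genes tested.

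The genes around these carriers were examined as 4 lists, of which 0 genes passed limma (adjusted p under 0.05) and 0 passed limma-voom. An unadjusted limma p under 0.05 was found for 2 genes, ASS1 and SRM, and for 625 of the 13274 genes tested. The counts of each list are to be read against all genes tested, of which 29.7% were higher and 36.4% lower in both siMYBL2 libraries, 3.49% and 4.44% were past the 1.5-fold rule upward and downward, and the median log2 difference was -0.03. Of 26 other amino acid carriers, 11 reached 1 RPKM, with 4 higher (36.4%) and 2 lower (18.2%) in both siMYBL2 libraries, a median of 0.14, and 0 past the 1.5-fold rule. The mitochondrial ornithine carrier SLC25A15 was at 3.87 RPKM in siMYBL2-1 and 4.01 RPKM in siMYBL2-2, against 2.41 RPKM in siNC, the largest difference upward, and SLC25A29, a mitochondrial carrier of basic amino acids, was at 3.17 and 2.15 RPKM, against 3.95 RPKM in siNC, the largest downward.

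Of 31 genes of ATF4 and the amino acid response, which switches on many carriers when amino acids run short, 23 reached 1 RPKM, with 9 higher (39.1%) and 5 lower (21.7%) in both siMYBL2 libraries and a median of 0.09. None passed the 1.5-fold rule with both libraries on the same side of siNC. STC2, a secreted glycoprotein of the stress response, was at 10.2 RPKM in siMYBL2-1 and 3.10 RPKM in siMYBL2-2, against 3.15 RPKM in siNC, so that its difference was that of siMYBL2-1 alone. DDIT4, an inhibitor of mTORC1, was at 32.9 and 30.4 RPKM in siMYBL2-1 and siMYBL2-2, against 46.5 RPKM in siNC. Of 39 genes of mTORC1 amino acid sensing, 29 reached 1 RPKM, with 7 higher (24.1%) and 12 lower (41.4%) in both, a median of -0.11 and 0 past the 1.5-fold rule. SEH1L, a subunit of the GATOR complex, was at 3.44 and 3.05 RPKM in siMYBL2-1 and siMYBL2-2, against 2.08 RPKM in siNC, and LAMTOR3, of the lysosomal Ragulator scaffold, at 0.877 and 1.51 RPKM, against 1.69 RPKM in siNC.

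Among 35 genes of amino acid, polyamine and glutathione metabolism, 29 reached 1 RPKM, with 14 higher (48.3%) and 9 lower (31.0%) in both siMYBL2 libraries and a median of 0.03. Past the 1.5-fold rule was 1 gene in each direction, or 3.45% of the 29. ASS1, which makes argininosuccinate on the way to arginine, was at 10.5 RPKM in siMYBL2-1 and 11.6 RPKM in siMYBL2-2, against 25.2 RPKM in siNC, with a log2 difference of -1.12 (SE 0.29) and a limma adjusted p of 0.509. SRM, the spermidine synthase, was at 24.7 RPKM in siMYBL2-1 and 14.2 RPKM in siMYBL2-2, against 10.4 RPKM in siNC, with a log2 difference of 0.80 (SE 0.35, limma adjusted p 0.999). The siMYBL2 libraries were close to each other for ASS1 and apart for SRM.

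**Figure D4:**
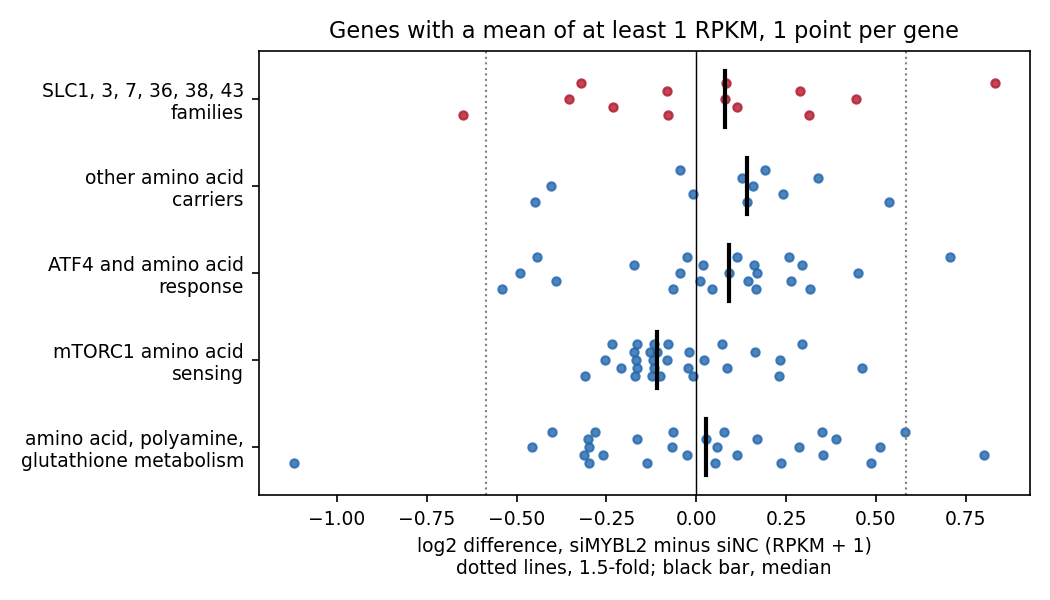
Log2 difference of siMYBL2 minus siNC on the log2(RPKM + 1) scale (horizontal axis) for each gene of the 6 carrier families and of the 4 other lists with a mean of at least 1 RPKM; 1 point per gene, black bars for medians and dotted lines at 1.5-fold. Points lie on both sides of 0 in every list, the carrier families run from -0.65 (SLC7A8) to 0.83 (SLC43A3), and the lowest point is ASS1 at -1.12.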

How the data were processed

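Poly(A) RNA was sequenced after dUTP marking of the second strand, per the labels' protocols. The authors deposited 1 table of RPKM values with exon intervals and exonic lengths on hg38, per the file headers and the submitters' processing notes, which name cutadapt 1.9, HISAT2 2.0.4 and StringTie 1.3.4d without a role. The sources used here do not give the counter, its strand setting or the annotation. RPKM times length was a whole number of reads for 100% of values within 0.001 reads, so the reads were recovered. As RPKM depends on the total of the library, a gain of some genes lowers others.

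limma 3.58.1 (R 4.3.3) was fitted to log2(RPKM + 1) of the 13274 genes that averaged 1 RPKM or more, siMYBL2 against siNC, with Benjamini-Hochberg adjustment over all of them and a threshold of 0.05. A difference on this scale understates that of low genes. The spread comes from the siMYBL2 pair and is applied to siNC as well. On data simulated with log2 changes of 3 in 200 genes the fit found at least 99.5% of them, but also called more unchanged genes than its threshold allows. The simulation gave every gene the same dispersion, not taken from these libraries. It therefore does not show what the fit can find here, where MYBL2, with a log2 difference of -2.03, had a limma adjusted p of 0.153. Ratios of single genes are plain ratios of RPKM, with exact conditional binomial intervals at 95% (scipy 1.17.1), which cover counting error only, as does the limit of 3 reads for a count of 0. Alternatives were 2 scalings, 2 filters, a pseudocount of 0.1 RPKM, limma-voom and each siMYBL2 library alone.

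Members with a mean of at least 1 RPKM are named with every level, and the rest by class. Of a list, the genes past the 1.5-fold rule are named, or else the largest difference in each direction. Genes with fewer reads were described where their counts allowed. The members and lists were chosen with earlier results of these data known. Of the listed genes, 1 (SLC32A1) was not analysed here.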

Additional observations from a re-analysis of the deposited data

How the results depend on the processing

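All 13 members tested kept the direction of their log2 difference and stayed without a call with a pseudocount of 0.1 RPKM, without a filter, with a filter at 5 RPKM (the 9 members that reach it), and with median ratio or upper quartile scaling. The count of members called was 0 under these and under limma-voom, as it was for the 4 lists. Over all genes the 1 call became 0 without a filter, at 5 RPKM and with either scaling, and 10 with limma-voom. Of the 2 members past the 1.5-fold rule (SLC43A3 and SLC7A8), 1 remained at 5 RPKM, where SLC7A8 is filtered out, and between 0 and 3 were past it with a single siMYBL2 library: 0 without siMYBL2-1. Plain ratios, added after the data were seen, gave 3. For the lists the rule gave 0 for the other carriers, but 1 with the small pseudocount, 0 to 1 with a single siMYBL2 library and 5 by plain ratios. It gave 0 for ATF4 and the amino acid response, but 1 to 3 with a single library and 1 by plain ratios, and 0 for mTORC1 sensing, but 1 with the small pseudocount and 1 by plain ratios. It gave 2 for metabolism, but 4 with the small pseudocount, 3 to 6 with a single library and 4 by plain ratios. The shares of all genes past the rule moved too, from 3.49% higher and 4.44% lower to 4.58% and 8.59% by plain ratios. They were 7.39% and 8.75% with siMYBL2-1 alone, and 2.55% and 4.41% with siMYBL2-2 alone. For the small pseudocount no such share is given here. These counts can therefore not be read as results about the members or the lists. The cause of these shifts was not tested. No paired analysis was possible because there is 1 siNC library and it carries no replicate number. Depth limits the scarce members, as for SLC38A9 with 97 to 117 reads in a library. SLC43A3, SLC1A3, SLC7A6 and SLC7A8 owe most of their difference to siMYBL2-1. The small difference of SLC3A2 was also that of siMYBL2-1, with log2 differences to siNC of 0.23 there and 0.0005 in siMYBL2-2.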
